A study of Mus musculus with 18 samples.

Results

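Oxidative phosphorylation is carried out in the inner mitochondrial membrane by 5 protein complexes. Complex I (NADH dehydrogenase), complex II (succinate dehydrogenase), complex III (cytochrome bc1) and complex IV (cytochrome c oxidase) pass electrons from nutrients to oxygen and, except for complex II, pump protons, and complex V (ATP synthase) uses the proton gradient to make ATP. Most subunits are encoded in the nucleus and imported, a small set is encoded by mitochondrial DNA, and B cells raise mitochondrial respiration when they are activated and divide. The genes described here are nuclear-encoded subunit genes, chosen by gene name (symbols of the Nduf, Sdh, Uqcr, Cox and Atp5 series, with symbols ending in -ps left out). Subunit genes with other symbols, among them Cyc1 of complex III and Ndufab1 of complex I, are missed by this rule. The rule itself uses no measured value, though it was set with earlier results of these data known. It was met by 89 of 55491 gene rows: 38 of complex I, 4 of complex II, 8 of complex III, 21 of complex IV and 18 of complex V, with Ndufa4 and its relative Ndufa4l2 placed in complex IV.

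The expression of these genes was measured by poly(A) RNA-Seq in B cells from the spleen and the Peyer's patches, which are clusters of lymphoid tissue in the gut wall. All mice were female, of the BALB/cJ strain and 10 to 12 weeks old, and all, controls included, had been made allergic to the egg protein ovalbumin (OVA) with intraperitoneal injections of 20 µg OVA and 1 mg alum on days 0 and 14. They then received, intravenously on days 28 and 42, 100 µL PBS, 100 µg soluble OVA or 2.5 mg of poly(lactide-co-glycolide) nanoparticles that enclose OVA (OVA NPs), and B cells were taken on day 44. The 2.5 mg is a mass of particles and the 100 µg a mass of protein. At the particle loading given in the study's methods, the nominal OVA dose of the particles equals that of soluble OVA. No group of unsensitized mice or of empty particles was analysed here. Each of the 6 groups held 3 libraries that the labels call biological replicates, and whether a spleen library and a Peyer's patch library came from the same mouse is not given in the sources used here. B cells were enriched by removing other cells with magnetic beads, after enzyme digestion for the Peyer's patches and without it for the spleen, so tissue and dissociation cannot be told apart. In bulk RNA, a change in the share of B cell states and a change in RNA per cell cannot be told apart either.

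Library totals ranged from 14177253 to 30052297 counts, and the lowest belonged to replicate 2 of the PBS-treated Peyer's patches. The summed level of 8 B cell markers was 5852 to 9439 CPM (counts scaled to a common library size) in every library, so the labelled cell type was present. Markers of other cells were also present: 7 intestinal epithelial markers summed to 238 to 1206 CPM in the Peyer's patch libraries against 13.9 to 16.2 CPM in the spleen, and 5 neutrophil markers to 136 to 477 CPM in the spleen against 1.37 to 45.9 CPM in the Peyer's patches. The epithelial marker Fabp2 was at 0 in every spleen library. The part of these cells in the tissue comparisons was not tested.

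Of the 89 members, 86 had at least 1 count in 1 library and 80 passed the filter on low counts in at least 1 comparison. No counts at all were assigned to Cox8b, Cox8c and a second gene identifier that also carries the symbol Atp5o. The members took 0.556% to 0.896% of all counts in a library. On a per-length scale (CPM per kilobase of transcript, averaged over the 18 libraries), the catalytic beta subunit of ATP synthase, Atp5b, stood highest of all members at 528 CPM per kb. Within the other complexes the highest levels per kb were those of Ndufa6 in complex I (177 CPM per kb), the flavoprotein subunit Sdha in complex II (89.2 CPM per kb), the hinge protein gene Uqcrh in complex III (139 CPM per kb) and Cox8a in complex IV (290 CPM per kb). The lowest tested members of each complex, in CPM per kb, were Ndufb2 (6.74), Sdhc (23.6), Uqcr11 (57.8), Cox6a2 (0.477) and Atp5g1 (10.5). This ranking depends on the length used, the median over a gene's annotated transcripts, which was 2413 bases for Ndufb2 and 2675.5 for Atp5g1. In mean CPM without length, Ndufb2 (16.3 CPM) stood above Ndufa3 (8.06 CPM) of complex I. Likewise Atp5g1 (28.1 CPM) stood above Atp5k (11.9 CPM) of complex V.

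Promoters of respiratory chain genes are known for sites of the nuclear respiratory factors NRF1 and NRF2 (the ETS protein GABP), of YY1 and of Sp1, so the members' promoter letters are shown before their values. RefSeq windows on GRCm38.p6, from 250 bases before to 50 bases after the start, were matched by symbol to 68 member symbols in 73 windows. The NRF1 letters GCGCANGCG, read on both strands, were in 21 of these 73 windows (28.8%) against 6.25% of 32851 windows of all genes, and the ETS letters CCGGAAG were in 17 windows (23.3%) against 8.86%. The YY1 letters AANATGGCG were in 10 windows (13.7%) against 2.38%, and the Sp1 letters GGGCGG in 29 windows (39.7%) against 35.7%. These shares are descriptions, since a match of letters is not a bound site. Below are the stretches around the NRF1 letters in 5 members whose match lies with 25 bases on each side before the start, the 4 with the largest spleen log2 fold change after OVA NPs and the 1 with the smallest, written 5′ to 3′ on the gene's strand with the matching letters in capitals.
Atp5k, chr5:108434416-108434474, minus strand: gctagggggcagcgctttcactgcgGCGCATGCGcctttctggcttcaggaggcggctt
Ndufa5, chr6:24527683-24527741, minus strand: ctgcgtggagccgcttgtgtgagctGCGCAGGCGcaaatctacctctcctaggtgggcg
Atp5h, chr11:115420027-115420085, minus strand: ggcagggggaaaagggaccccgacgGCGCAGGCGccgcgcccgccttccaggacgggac
Cox6a1, chr5:115349042-115349100, minus strand: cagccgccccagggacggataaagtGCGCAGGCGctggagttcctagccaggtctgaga
Sdha, chr13:74350262-74350320, minus strand: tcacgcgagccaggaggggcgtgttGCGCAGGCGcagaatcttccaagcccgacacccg
These 5 were picked by their spleen change among the 10 members that have such a stretch, so the letters stand at both ends by choice. Their log2 fold changes after OVA NPs were 0.57 for Atp5k, 0.37 for Ndufa5, 0.37 for Atp5h, 0.36 for Cox6a1 and 0.02 for Sdha. Whether a match goes with the size of the change was not tested.

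In the spleen, OVA NP treatment went with higher mRNA of nuclear oxidative phosphorylation genes across all 5 complexes. The summed level of the 89 members was 5427, 5510 and 5630 CPM in the PBS libraries and 6267, 6553 and 6639 CPM in the OVA NP libraries, so the groups did not overlap. Of 78 members tested, 42 were called higher and 0 lower, where called means an adjusted p below 0.05 in edgeR's quasi-likelihood test over all genes and a log2 fold change beyond 0.25. Over all 14200 genes tested, 8.6% were called higher and 6.35% lower. All 78 members had a positive log2 fold change, with a median of 0.27 against 0.00062 over all genes tested. In 56 of the 78 members the 3 OVA NP libraries all lay above the 3 PBS libraries, as in 18.7% of all genes.

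**Figure D1:**
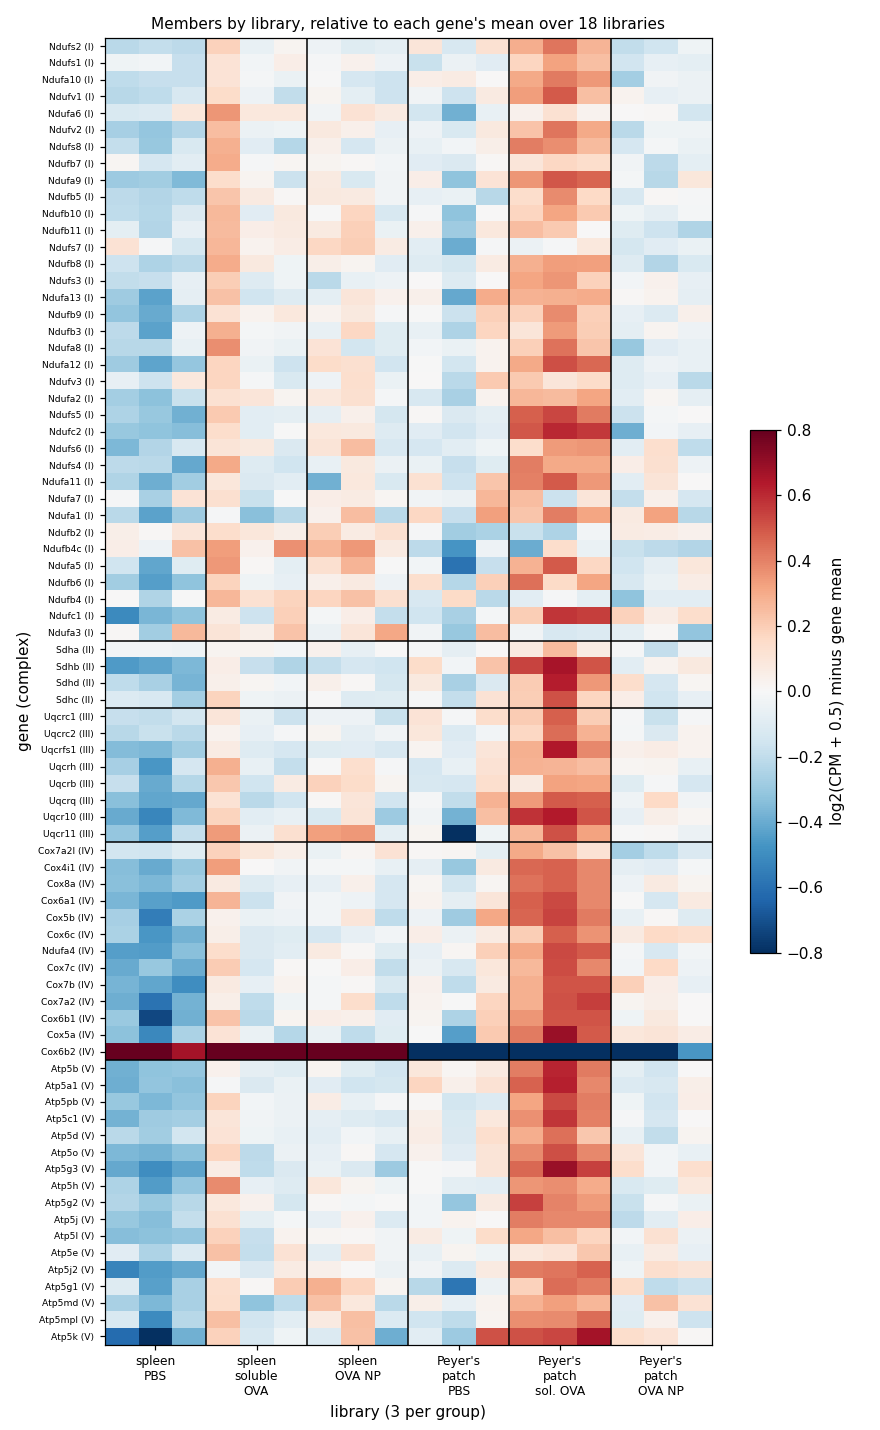
Heat map of the 78 members tested in the spleen comparisons (rows, grouped by complex and ordered by mean CPM) in the 18 libraries (columns, 3 per group). Colour gives log2(CPM + 0.5) minus the gene's mean over the 18 libraries and is clipped at 0.8 in both directions. The PBS spleen libraries are low (blue) and the soluble OVA Peyer's patch libraries high (red) for most rows, and Cox6b2 is the row that splits by tissue.

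Complexes III, IV and V held the larger spleen changes after OVA NPs. Called higher were 5 of 8 members of complex III (median log2 fold change 0.34), 10 of 13 of complex IV (0.33) and 12 of 17 of complex V (0.30). In complex I 13 of 36 members were called higher (0.21) and in complex II 2 of 4 (0.18). The largest called changes were those of Atp5k and Uqcr11. Atp5k, the e subunit of ATP synthase that helps hold its dimers together, was 7.32, 6.06 and 8.68 CPM in the PBS libraries and 10.6, 13.6 and 8.63 CPM in the OVA NP libraries, so that 1 OVA NP library lay within the PBS range. Its log2 fold change was 0.57 ± 0.18 (SE, adjusted p = 0.041, n = 3 per group, edgeR). Uqcr11, the smallest subunit of complex III, was 20.1, 18.3 and 21.8 CPM after PBS and 31.6, 31.99 and 23.7 CPM after OVA NPs. Its groups did not overlap, and its log2 fold change was 0.54 ± 0.12 (adjusted p = 0.0081, edgeR).

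The other members with the largest spleen changes after OVA NPs belonged to complexes IV and V in most cases. Cox6b1, which helps join the monomers of the cytochrome c oxidase dimer, had a log2 fold change of 0.47 ± 0.10, Cox7a2 of 0.44 ± 0.10 and Cox7b of 0.40 ± 0.07. Ndufa4 (chr6:11900292-11907497, minus strand, GRCm38), first described in complex I and now counted as a cytochrome c oxidase subunit, was 45.5, 45.3 and 48.9 CPM after PBS and 65.0, 62.3 and 58.0 CPM after OVA NPs, with a log2 fold change of 0.41 ± 0.06 (adjusted p = 0.00046, edgeR). The groups did not overlap for Ndufa4. In complex V, Atp5j2, the f subunit, had the smallest adjusted p of all members (log2 fold change 0.47 ± 0.07, adjusted p = 0.00022, edgeR), and Atp5g1, one of 3 genes for the proton-carrying c ring, had a log2 fold change of 0.43 ± 0.10. Uqcrb of complex III (0.40 ± 0.08) and Ndufb6 of complex I (0.39 ± 0.11) completed the 10 largest. These 10 members were all called.

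The catalytic subunits and others fixed by name had values on both sides of the member median in the spleen. Sdha, which holds the flavin of succinate dehydrogenase, was 255, 254 and 253 CPM after PBS and 264, 247 and 259 CPM after OVA NPs, and its log2 fold change of 0.02 ± 0.05 did not pass the test (adjusted p = 0.81, edgeR). Ndufs1 and Ndufv1, which carry iron-sulfur clusters and the NADH site of complex I, had log2 fold changes of 0.08 ± 0.06 and 0.12 ± 0.06, and neither passed. The Rieske protein gene Uqcrfs1 (0.23 ± 0.05) and Atp5a1, the alpha subunit of ATP synthase (0.22 ± 0.05), had adjusted p of 0.0065 and 0.0087 in edgeR but stayed under the fold cutoff. Of the others, Sdhb (0.26 ± 0.05), Sdhd (0.26 ± 0.07), Cox4i1 (0.32 ± 0.05), Cox5a (0.25 ± 0.08) and Atp5b (0.27 ± 0.06) were called higher, and Cox5b (0.32 ± 0.10) had an adjusted p of 0.065. Atp5b (chr10:128083273-128090391, plus strand, positions on GRCm38 here and below) was 763, 796 and 805 CPM after PBS and 1012, 930 and 896 CPM after OVA NPs. Across the 78 members, the log2 fold change and transcript length had a Spearman rho of -0.41, and over the other 11885 protein-coding genes tested the rho was -0.12, a description across genes that share the same 6 libraries. After soluble OVA in the spleen the rho was -0.22 for the members and -0.26 for the other genes, and after soluble OVA in the Peyer's patches it was -0.02 and -0.12.

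Single libraries mattered for the count of called members in the spleen. Without PBS replicate 2 the number of members called higher after OVA NPs was 26, without OVA NP replicate 1 it was 26 and without OVA NP replicate 2 it was 25, and no member was called lower in any of these fits. With all 18 libraries in 1 model it was 25.

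Soluble OVA went with higher levels of the same kind in the spleen. The member sum was 7275, 6395 and 6443 CPM in the 3 soluble OVA libraries, above all 3 PBS libraries, and replicate 1 was the highest. Of 78 members tested, 45 were called higher and 0 lower, against 10.5% higher and 6.72% lower of 14128 genes. The median log2 fold change was 0.30, against -0.0082 over all genes, all 78 were positive, and in 58 members all soluble OVA libraries lay above all PBS libraries, as in 19.1% of genes. By complex the called members were 15 of 36, 2 of 4, 5 of 8, 11 of 13 and 12 of 17, with the largest median in complex IV (0.40). Atp5k (0.66 ± 0.15), Cox6b1 (0.49 ± 0.13), Uqcr11 (0.48 ± 0.10), Ndufc1 (0.46 ± 0.14) and Cox4i1 (0.46 ± 0.08) led. Cox6a1, Uqcr10, Atp5j2, Cox7b and Atp5h followed with log2 fold changes of 0.43 to 0.46. Without soluble OVA replicate 1 the number called was 25 and without PBS replicate 2 it was 26. This comparison and the OVA NP comparison share the 3 PBS libraries, so their likeness is not independent.

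**Figure D2:**
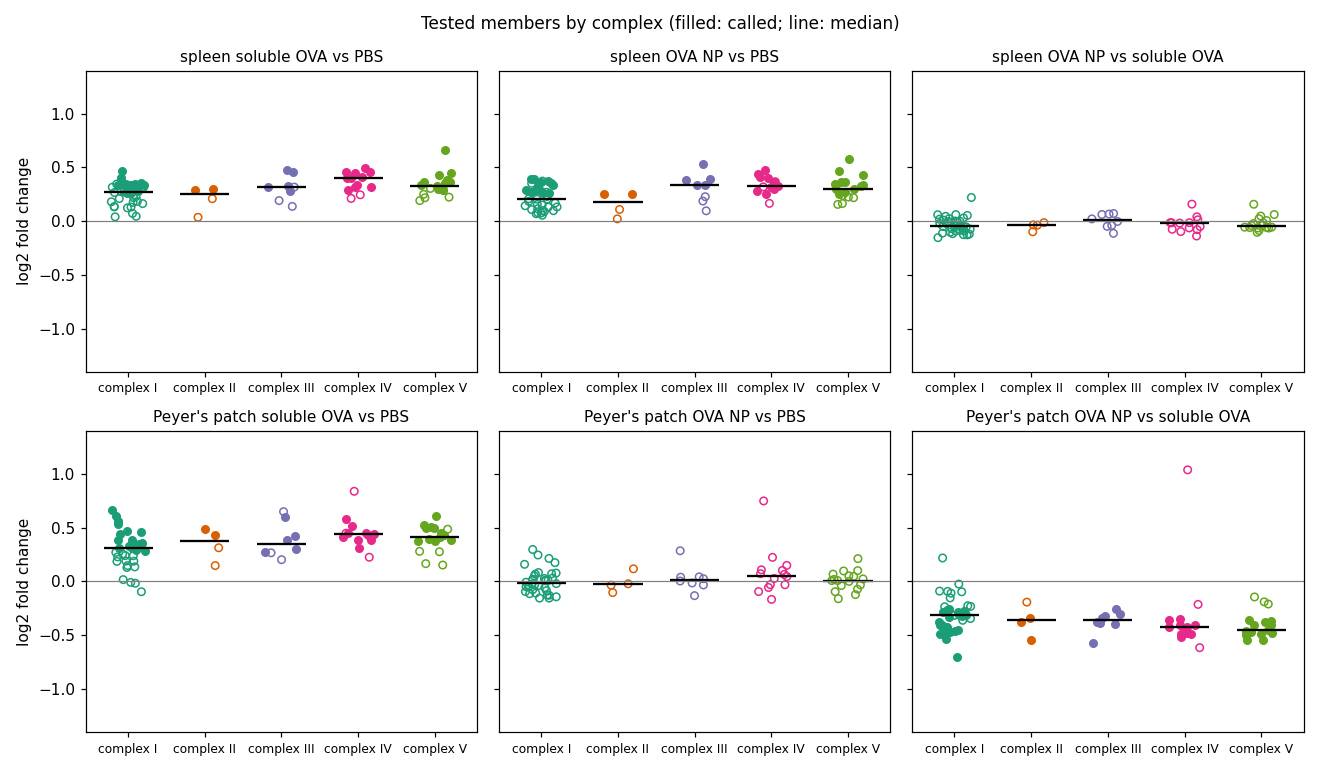
Log2 fold changes of the tested members (points) by complex in the 6 treatment comparisons, with filled points for called members and lines for the median of each complex. All 78 spleen points lie above 0 for both antigen forms against PBS, the Peyer's patch points lie above 0 in 75 of 78 for soluble OVA and scatter around 0 for OVA NPs.

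The direct comparison of the antigen forms in the spleen showed 0 members called in either direction in edgeR. None of the 78 members reached an unadjusted p under 0.05, and 0 were called by DESeq2. Among all 13840 genes, 0.137% were called higher and 0.101% lower after OVA NPs than after soluble OVA. The median member log2 fold change was -0.04, and the values ran from -0.15 to 0.22. Atp5b differed by a log2 fold change of -0.02 ± 0.08 and Ndufa4 by 0.01 ± 0.08. A test that does not pass does not show that the forms acted alike, and differences of the size of these errors would not be detectable with 3 libraries per group.

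In the Peyer's patches the antigen forms differed. After soluble OVA the member sum was 8450, 9339 and 8427 CPM against 6858, 6289 and 7016 CPM after PBS, with no overlap. Of 78 members tested, 49 were called higher and 0 lower, against 13.5% higher and 13.9% lower of 15792 genes. The median log2 fold change was 0.37, against -0.02 over all genes, and 63 members had all soluble OVA libraries above all PBS libraries, as 22.1% of genes did. The called members were 20 of 36 in complex I, 2 of 4 in complex II, 5 of 8 in complex III, 10 of 13 in complex IV and 12 of 17 in complex V.

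Ndufc2 (chr7:97400003-97407802, plus strand), an accessory subunit in the membrane arm of complex I, had the largest change among the called members. It was 25.9, 24.7 and 25.8 CPM after PBS and 39.0, 42.1 and 41.0 CPM after soluble OVA. The groups were far apart for Ndufc2, with a log2 fold change of 0.66 ± 0.08 (adjusted p = 0.00048, n = 3 per group, edgeR). The c-ring genes Atp5g1 (0.61 ± 0.15) and Atp5g3 (0.53 ± 0.08), the complex III subunit Uqcr10 (0.60 ± 0.15) and the complex IV subunits Cox5a (0.58 ± 0.17) and Cox4i1 (0.52 ± 0.10) were also among the 10 largest, with Ndufc1, Ndufa5, Ndufs5 and Atp5mpl at 0.51 to 0.61. Uqcr11 had an estimate of 0.65 ± 0.32 and did not pass (adjusted p = 0.20, edgeR): its PBS libraries read 25.4, 11.2 and 24.4 CPM, the low value being that of replicate 2, the shallowest library. Without that library 43 members were called higher, and over the leave-one-out fits the count ran from 33 to 57. Sdha was again small, at 0.15 ± 0.08 (adjusted p = 0.19, edgeR).

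After OVA NPs the Peyer's patch member sum was 6397, 6312 and 6648 CPM, inside the range of the PBS libraries. Of 79 members tested against PBS, 0 were called in edgeR, with 0% of all 15798 genes called higher and 0% lower. At an unadjusted p under 0.05 there were 2 members, Cox7a2l (log2 fold change -0.17 ± 0.07) and Atp5a1 (-0.16 ± 0.07), and 1573 genes in all, and DESeq2 called 0 members and 149 genes. The median member log2 fold change was 0.0078, and 43 of 79 were positive. Atp5b had a log2 fold change of -0.12 ± 0.07, Sdhb of -0.10 ± 0.08 and Cox6a1 of -0.03 ± 0.08.

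Set against soluble OVA, OVA NP-treated Peyer's patch B cells had lower levels of members of every complex. Of 79 members tested, 57 were called lower and 0 higher, against 16.3% lower and 13.8% higher of 15599 genes. The median log2 fold change was -0.37, against 0.03 over all genes, and 72 members had all OVA NP libraries below all soluble OVA libraries, as 25.6% of genes did. Called lower were 21 of 36 members of complex I, 3 of 4 of complex II, 8 of 8 of complex III, 11 of 14 of complex IV and 14 of 17 of complex V. The soluble OVA libraries are shared with the comparison against PBS above.

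The largest called members stood in all 5 complexes. Ndufc2 was 39.0, 42.1 and 41.0 CPM after soluble OVA and 20.9, 27.1 and 26.3 CPM after OVA NPs, a log2 fold change of -0.70 ± 0.10 (adjusted p = 0.0014, edgeR). Its groups did not overlap. Sdhb (chr4:140961203-140979193, plus strand), the iron-sulfur subunit of succinate dehydrogenase, was 140, 152 and 137 CPM after soluble OVA and 90.9, 97.9 and 101.8 CPM after OVA NPs, and its log2 fold change was -0.55 ± 0.07. Atp5b was 1321, 1520 and 1326 CPM after soluble OVA and 943, 893 and 997 CPM after OVA NPs, with a log2 fold change of -0.54 ± 0.09. Uqcr10 (-0.57 ± 0.08), Atp5a1 (-0.55 ± 0.09), Ndufs5 (-0.53 ± 0.09), Cox5b (-0.52 ± 0.07), Atp5g2 (-0.50 ± 0.09), Ndufa12 (-0.49 ± 0.08) and Ndufa4 (-0.49 ± 0.08) followed. The complex I core subunits Ndufs1 and Ndufv1, which did not pass in the spleen, were called lower here, with log2 fold changes of -0.33 ± 0.07 and -0.38 ± 0.09.

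Of the 79 members, 22 were not called in that comparison. Sdha had a log2 fold change of -0.19 ± 0.09 (adjusted p = 0.12, edgeR), Ndufa6 of -0.09 ± 0.08 and Ndufs7, a core iron-sulfur subunit, of -0.09 at an adjusted p of 0.39. Only Ndufb2 (0.22 ± 0.12) and Cox6a2 (1.04 ± 0.51, below 1 CPM) had positive estimates, and neither passed. Exons of Ndufb2 overlap those of Braf on the other strand, as exons of 30 members overlap another gene's in the GENCODE M21 annotation, and how strand was handled in counting is not given in the sources used here. Over the fits that leave out 1 library the number of members called lower ran from 41 to 60.

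**Figure D3:**
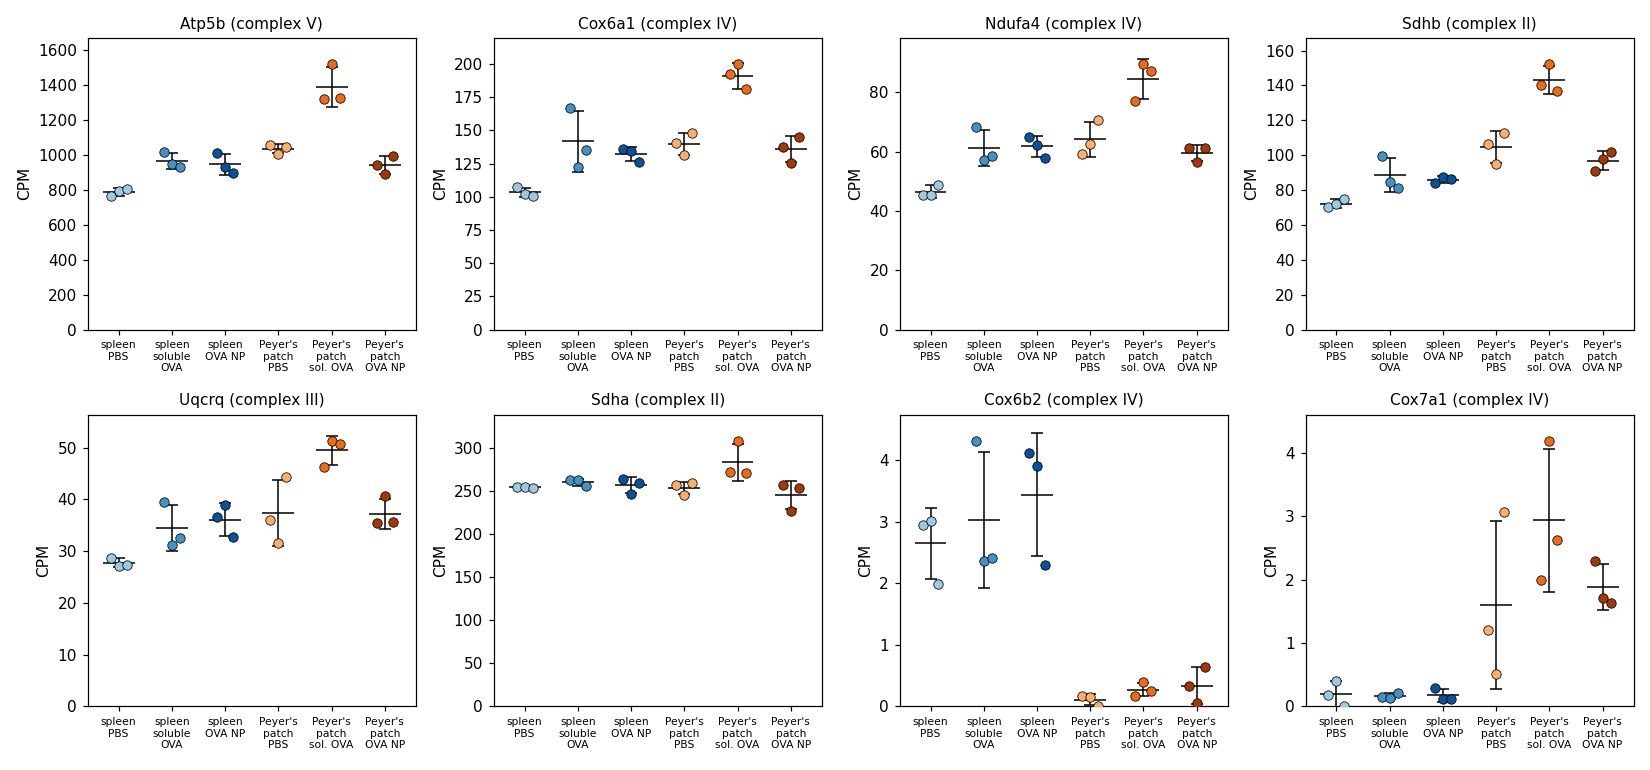
CPM of 8 members in each library (points), with group means (horizontal lines) and SD (bars), n = 3 per group. Atp5b, Cox6a1, Ndufa4, Sdhb and Uqcrq are lowest in the PBS spleen group and highest in the soluble OVA Peyer's patch group, Sdha differs least among these between the groups, Cox6b2 is a spleen gene and Cox7a1 a Peyer's patch gene in these libraries.

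The effect of each antigen form was compared between the tissues. For soluble OVA against PBS, the members' log2 fold changes in the spleen and the Peyer's patches, which share no library, had a Pearson r of 0.68 and a Spearman rho of 0.67 over 77 members, a description across genes that differ in length and level. Called in both tissues were 36 members, 80.0% of the 45 called in the spleen and 73.5% of the 49 called in the Peyer's patches. With 49 of 78 tested members called in the Peyer's patches, unrelated calls would overlap in many members too. The overlap over all genes was not computed. The test of the difference between tissues called 0 members in edgeR, with 2 at an unadjusted p under 0.05 and 0 by DESeq2, and the median difference (Peyer's patch minus spleen) was 0.06. Over all 16541 genes it called 1.77% higher and 5.07% lower.

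For OVA NPs against PBS the tissues differed in 5 members. The median difference in log2 fold change (Peyer's patch minus spleen) over 80 members was -0.25, and 76 of 80 were negative. Called lower were Ndufa4 (-0.49 ± 0.11, adjusted p = 0.024), Atp5b (-0.38 ± 0.09, adjusted p = 0.025), Cox6a1 (-0.38 ± 0.10, adjusted p = 0.042), Atp5a1 (-0.37 ± 0.08, adjusted p = 0.022) and Cox7a2l (-0.32 ± 0.08, adjusted p = 0.036), all by edgeR, and 0 were called higher. That is 5 of 80 members, against 3.54% lower and 0.872% higher of 16619 genes, so the count of calls was close to the background. Sdhb had a difference of -0.35 ± 0.10 (adjusted p = 0.058, edgeR). Cox7a2l, which takes part in joining complexes III and IV into supercomplexes, was 188, 186 and 195 CPM in the PBS spleens and 200, 210 and 225 CPM after OVA NPs, and 210, 210 and 197 CPM in the PBS Peyer's patches and 172, 181 and 192 CPM after OVA NPs. The OVA NP libraries lay above PBS in the spleen and below PBS in the Peyer's patches, and neither change was called by itself. These 5 calls rested on few libraries: with 1 library left out the count was 0 without any 1 of spleen PBS replicates 1 and 2, spleen OVA NP replicates 1 and 2, Peyer's patch PBS replicate 3 and Peyer's patch OVA NP replicate 2. It was 1 without spleen PBS replicate 3 or Peyer's patch PBS replicate 1, 2 without Peyer's patch OVA NP replicate 1 and 15 without Peyer's patch PBS replicate 2.

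**Figure D4:**
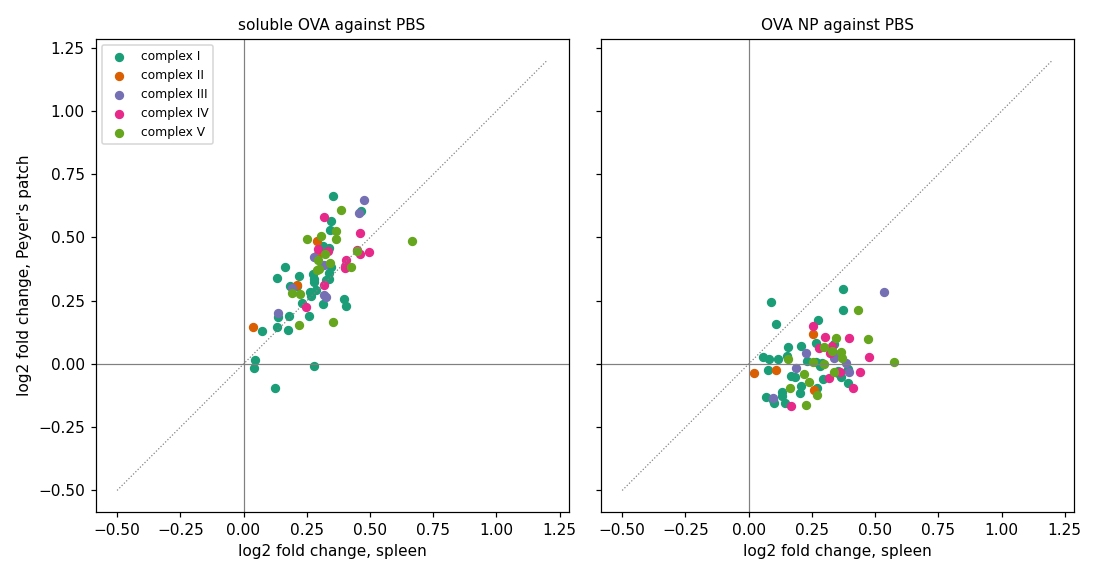
Each point is a member tested in both tissues, coloured by complex, with the spleen log2 fold change on the x axis and the Peyer's patch log2 fold change on the y axis (dotted line: equal values). For soluble OVA (left) 74 of 77 points share their sign, and for OVA NPs (right) the spleen values are all positive while the Peyer's patch values lie on both sides of 0.

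Between the tissues within a treatment, Peyer's patch B cells had higher levels of many members after PBS and after soluble OVA. After PBS 38 of 79 members were called higher and 1 lower in the Peyer's patches, against 25.5% higher and 20.1% lower of 15463 genes, with a median log2 fold change of 0.27. After soluble OVA 46 of 79 were called higher and 1 lower, against 26.7% and 24.3% of 15415 genes, with a median of 0.32. After OVA NPs 3 of 80 were called higher and 2 lower, against 22% and 15.1% of 15466 genes, with a median of 0.02. Sdhb (0.56 ± 0.08), Atp5g3 (0.50 ± 0.06) and Atp5a1 (0.48 ± 0.06) were among the largest called higher after PBS. The corresponding values after soluble OVA were 0.69 ± 0.09 for Sdhb, 0.65 ± 0.09 for Atp5g3 and 0.56 ± 0.08 for Atp5a1. After OVA NPs, Atp5g3 (0.29 ± 0.08), Cox5a (0.25 ± 0.08) and Cox7a1 were the members called higher. Each of these 3 comparisons counts Cox7a1 among the members called higher and Cox6b2 among those called lower, and both had passed the filter through 1 tissue only. Without spleen PBS replicate 2 the count of calls after PBS was 22, and with library totals in place of TMM factors it was 23. After OVA NPs the count was 2 without spleen OVA NP replicate 2 and 3 without Peyer's patch OVA NP replicate 2, and with library totals the calls were 1 higher and 6 lower.

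Isoforms that other tissues use were scarce, with 2 exceptions that split by tissue. Cox6b2 (chr7:4751792-4753094, minus strand), the form of subunit 6b known from testis, had at most 14 counts in any Peyer's patch library under the 3 treatments. Its counts in the spleen were 68, 74 and 44 after PBS, 112, 38 and 45 after soluble OVA and 72, 70 and 58 after OVA NPs. In the Peyer's patches they were 4, 2 and 0 after PBS, 5, 10 and 6 after soluble OVA and 7, 1 and 14 after OVA NPs, so no library of 1 tissue overlapped the other. Cox6b2 passed the filter on low counts through the spleen libraries only, so its calls between the tissues add nothing to these counts. In the spleen Cox6b2 made up 7.16% to 14.0% of the 6b transcripts per length and the common form Cox6b1 the rest, against at most 2.01% in a Peyer's patch library.

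Cox7a1 (chr7:30184144-30186078, plus strand), the form of subunit 7a known from heart and muscle, went the other way. Its counts were 4, 10 and 0 in the PBS spleens and 29, 7 and 60 in the PBS Peyer's patches, 4, 2 and 4 against 57, 107 and 63 after soluble OVA, and 5, 2 and 3 against 50, 37 and 36 after OVA NPs. The tissues overlapped in counts after PBS, where the Peyer's patch library with 7 counts was the shallow replicate 2. In CPM they did not overlap, with at most 0.407 CPM in a spleen library and at least 0.513 CPM in a Peyer's patch library. Cox7a1 passed the filter through the Peyer's patch libraries only, so its calls between the tissues likewise add nothing. It made up 2.13% to 11% of the 7a transcripts per length in the Peyer's patches. Epithelial markers were at 238 CPM in the Peyer's patch library with the lowest Cox7a1 and at 1206 CPM in the one with the highest. The libraries between them kept this order in part. PBS replicate 3 had 808 CPM of epithelial markers and 3.08 CPM of Cox7a1, PBS replicate 1 had 549 and 1.21 CPM, and soluble OVA replicate 1 had 301 and 1.99 CPM. The part of epithelial cells in this difference was not tested.

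The c ring of ATP synthase is encoded by 3 genes whose mature proteins are alike. Per length, Atp5g2 held 43.2% to 53.3% and Atp5g3 42.5% to 53.0% of their summed transcripts in every library, while Atp5g1 held 2.83% to 4.75%. The length was the median over a gene's annotated transcripts: 2675.5 bases for Atp5g1, 586 for Atp5g2 and 718.5 for Atp5g3. The size of the Atp5g1 share depends on that length. In CPM, without length, the means were 28.1 for Atp5g1, 78.6 for Atp5g2 and 94.7 for Atp5g3. Among other forms, the most counts in any library were 20 for Cox6a2, 7 for Cox4i2, 7 for Ndufa4l2 and 5 for Cox7b2. Processed pseudogenes are also among the members, and Ndufa11b, Ndufs6b and Cox6c2 had at most 2 counts in a library. Ndufb4c, annotated as a processed pseudogene, had a mean of 15.6 CPM against 12.7 CPM for Ndufb4 itself, and reads of the 2 genes may have been split between them, so both are uncertain. The 13 rows left out for their -ps symbols summed to at most 0.513% of the member sum in any library.

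The 13 protein-coding genes of mitochondrial DNA encode further subunits of complexes I, III, IV and V, and for OVA NPs against soluble OVA in the Peyer's patches they were called in the opposite direction to the nuclear members. Their summed level was 48677, 59126 and 52930 CPM after soluble OVA, 72723, 51717 and 62731 CPM after PBS and 85678, 92350 and 85816 CPM after OVA NPs. For OVA NPs against soluble OVA 13 of 13 were called higher (median log2 fold change 0.74), beside the 57 nuclear members called lower. Against PBS, 0 of 13 were called in edgeR after soluble OVA (median -0.23, 2 at an unadjusted p under 0.05) and 0 of 13 after OVA NPs (median 0.49, 10 at an unadjusted p under 0.05). The catalytic cytochrome c oxidase subunit mt-Co1 had a log2 fold change of 0.74 ± 0.11, mt-Cytb of 0.71 ± 0.09 and mt-Nd1 of 0.58 ± 0.09. The ratio of the mitochondrial sum to the nuclear member sum was 5.76 to 6.33 after soluble OVA, 8.22 to 10.6 after PBS and 12.9 to 14.6 after OVA NPs, without overlap between the 3 groups. In the spleen it was 4.63 to 5.33 after PBS, 4.37 to 4.98 after soluble OVA and 4.203 to 4.65 after OVA NPs, and 0 and 1 of the 13 were called higher against PBS after OVA NPs and soluble OVA. Mitochondrial reads also vary with cell stress and RNA quality in such libraries, and their part was not tested.

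**Figure D5:**
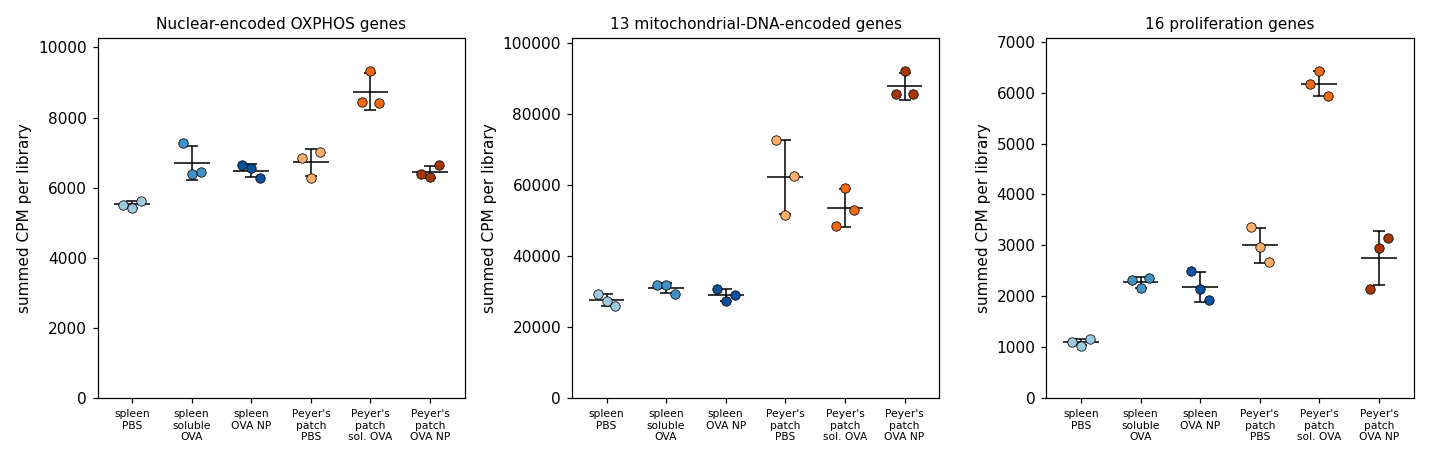
Summed CPM per library (points) of the 89 nuclear members, the 13 mitochondrial-DNA-encoded genes and the 16 proliferation genes, with group means (lines) and SD (bars), n = 3 per group. The nuclear and proliferation sums peak in the soluble OVA Peyer's patch group, where the mitochondrial sum is below the OVA NP group.

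Other genes of mitochondrial energy metabolism moved with the members in part. Of 17 tricarboxylic acid cycle genes, 2 were called higher in the spleen after OVA NPs (median log2 fold change 0.11) and 2 after soluble OVA (0.14). Over all genes tested these shares were 8.6% and 10.5%, so the spleen counts were close to the background. In the Peyer's patches 9 of the 17 were called higher after soluble OVA (0.36), against 13.5% of all genes. The same shares apply to the lists of further genes below. For OVA NPs against soluble OVA 11 were called lower (-0.31), against 16.3% of all genes. Cs, citrate synthase, had a log2 fold change of 0.14 ± 0.05 in the spleen after OVA NPs, which did not pass, and of -0.50 ± 0.08 in that last comparison, which did. A list of 17 further genes held electron carrier, ubiquinone synthesis and adenine nucleotide or phosphate carrier genes. It also held the complex III subunit gene Cyc1 and the ATP synthase inhibitor gene Atpif1. Of these 17, 4 and 6 were called higher in the spleen after OVA NPs and soluble OVA. In the Peyer's patches 7 were called higher and 1 lower after soluble OVA, and 8 lower and 1 higher for OVA NPs against soluble OVA. Slc25a5, an ADP/ATP carrier, had log2 fold changes of 0.29 ± 0.06, 0.39 ± 0.07, 0.55 ± 0.09 and -0.58 ± 0.08 in these 4 comparisons and was called in each. The phosphate carrier Slc25a3 had log2 fold changes of 0.06 ± 0.07 in the spleen and 0.09 ± 0.08 in the Peyer's patches after soluble OVA, and neither passed.

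Assembly factors of the complexes and regulators of mitochondrial biogenesis moved less. Of 47 assembly factors, 2 were called higher and 1 lower in the spleen after OVA NPs (median log2 fold change 0.08). After soluble OVA 1 was called higher there (0.14). Both spleen counts of higher genes were below the shares over all genes, 8.6% and 10.5%. In the Peyer's patches 4 were called higher and 1 lower after soluble OVA (0.11). For OVA NPs against soluble OVA 1 was called higher and 9 lower (-0.18), beside 16.3% of all genes called lower. Sdhaf2, which helps put the flavin into Sdha, had log2 fold changes of 0.27 ± 0.06 and 0.30 ± 0.06 in the spleen after OVA NPs and soluble OVA, both called, while Coa5 and Cox17 did not pass. Of 13 regulators, 0 were called in the spleen after OVA NPs in edgeR and 1 lower after soluble OVA. In the Peyer's patches after soluble OVA 2 were called higher and 1 lower: Gabpa, the DNA-binding subunit of NRF2, had a log2 fold change of 0.39 ± 0.07, Yy1 of 0.32 ± 0.07 and Myc of -0.93 ± 0.20. The exons of Gabpa overlap those of the member Atp5j on the other strand by 397 bases, so without strand their reads cannot be told apart.

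Glycolysis genes moved with the members in part. Of 18 genes, 5 were called higher in the spleen after OVA NPs (median log2 fold change 0.23), 7 higher and 1 lower after soluble OVA (0.21), 9 higher and 2 lower in the Peyer's patches after soluble OVA (0.33), and 3 higher and 11 lower for OVA NPs against soluble OVA (-0.37). Gapdh had log2 fold changes of 0.54 ± 0.06, 0.71 ± 0.08, 0.52 ± 0.07 and -0.76 ± 0.08 in the same order, and Ldha, lactate dehydrogenase A, of 0.47 ± 0.06, 0.54 ± 0.06, 0.56 ± 0.09 and -0.57 ± 0.08. Gpi1 was 332, 356 and 386 CPM in the PBS spleens and 385, 370 and 384 CPM after OVA NPs, so these groups overlapped. In the Peyer's patches after soluble OVA 14 of the 18 genes had a positive log2 fold change and 4 a negative one. Slc2a3, a glucose transporter, was 45.6, 56.2 and 49.1 CPM there after PBS and 26.9, 24.1 and 24.4 CPM after soluble OVA.

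Markers of dividing B cells, and in part of germinal center B cells, moved with the members between the treatments. The sum of 16 proliferation genes was 1032 to 1167 CPM in the PBS spleens, 2156 to 2359 CPM after soluble OVA and 1921 to 2500 CPM after OVA NPs, and 16 of 16 were called higher than PBS after each antigen form. In the Peyer's patches it was 2673 to 3355 CPM after PBS, 5928 to 6432 CPM after soluble OVA and 2144 to 3137 CPM after OVA NPs, with 16 of 16 called higher for soluble OVA against PBS and 16 of 16 lower for OVA NPs against soluble OVA. Mki67 had log2 fold changes of 1.63 ± 0.18 and 1.63 ± 0.12 in the spleen after OVA NPs and soluble OVA and of 1.18 ± 0.09 in the Peyer's patches after soluble OVA. The sum of 10 germinal center genes was 178 to 263 CPM in the PBS spleens, 474 to 670 CPM after soluble OVA and 441 to 458 CPM after OVA NPs. In the Peyer's patches it was 1456 to 1729, 2334 to 2452 and 1037 to 1576 CPM in the same order of groups, and 7 of 9 tested were called higher and 1 lower for soluble OVA against PBS and 7 of 9 lower and 1 higher for OVA NPs against soluble OVA. The part of dividing or germinal center cells in the members' levels was not tested. Among markers of other cells, 8 T cell markers summed to 65.0 to 84.8 CPM in the spleen and 135 to 180 CPM in the Peyer's patches, most of it from Lck, which B cells can also express, and 8 monocyte and macrophage markers to 40.5 to 235 CPM over all libraries. For OVA NPs against soluble OVA in the Peyer's patches, where the members were called lower, 13.8% of all genes tested were called higher and 16.3% lower. In that comparison 5 of 8 T cell markers were called higher and 1 lower. Called higher were also 3 of 7 monocyte and macrophage markers and 2 of 2 tested neutrophil markers. Of 7 epithelial markers 1 was called higher, close to the background, and 5 had a negative log2 fold change. In the spleen 3 of 6 tested monocyte and macrophage markers were called lower after soluble OVA and 1 of 6 after OVA NPs, beside the members called higher. Over all genes 6.72% and 6.35% were called lower in these comparisons. In the spleen the neutrophil markers had a median log2 fold change of 0.57 after OVA NPs against PBS, with 0 of 4 called in edgeR. The 7 plasma cell markers summed to 466 to 532 CPM in the PBS spleens, 602 to 683 CPM after soluble OVA and 721 to 745 CPM after OVA NPs, without overlap, and to 1023 to 1199 CPM in the Peyer's patches. In the spleen 3 of 6 tested were called higher after OVA NPs, and 3 were called higher and 1 lower after soluble OVA. Over all genes 8.6% and 10.5% were called higher in these comparisons. In the Peyer's patches 2 of 6 were called higher and 1 lower for soluble OVA against PBS, and 1 of 6 lower for OVA NPs against soluble OVA. Over all genes those shares were 13.5%, 13.9% and 16.3%, so the counts of 1 of 6 were close to the background. The B cell markers had 1 of 8 called lower in the spleen after each antigen form, beside the members called higher. Over all genes 6.35% were called lower there after OVA NPs and 6.72% after soluble OVA. In the Peyer's patches after soluble OVA 3 of 8 were called lower, against 13.9% of all genes, again beside the members called higher. The erythroid markers summed to 0.352 to 27.2 CPM over all libraries. The part of these cells was not tested.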

How the data were processed

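RNA from 18 B cell libraries (6 groups of 3) was sequenced by the authors, who deposited 1 table of RSEM expected counts per gene, all whole numbers. Per the submitters' processing notes and the study's methods, the reads were trimmed with Cutadapt 2.3 and mapped with STAR 2.7.8a to GRCm38 with Ensembl 102, and counted with RSEM 1.3.3. How strand was handled is not given in the sources used here. RSEM divides reads that fit several genes, so counts of near-identical copies are uncertain. The gene table's expected counts were used as deposited, and groups came from the sample labels.

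Each comparison was fitted with edgeR 4.0.16 (R 4.3.3): TMM factors, filterByExpr, the robust quasi-likelihood F test on the groups compared, and Benjamini-Hochberg adjustment over all genes tested. Genes were called at an adjusted p below 0.05 and a log2 fold change beyond 0.25. The effect of a treatment was compared between tissues with an interaction term. The ± after a log2 fold change is its standard error, CPM uses TMM library sizes over the 18 libraries, and the floor was 3 counts per library. P-values set the difference between group means against the spread between libraries of a group. Levels per kb used the median length over a gene's transcripts in GENCODE M21. Positions used GENCODE M21 too, and promoters RefSeq on GRCm38.p6. The scripts were tested on simulated data. The members and the gene lists were chosen with earlier results of these data known. The text names up to 10 called members with the largest change in each direction and comparison, the highest and lowest member per kb of each complex, isoform pairs, a fixed set of catalytic and other subunits and, of other lists, at most 4 genes of the highest expression. Members and list genes outside this rule were named after their values were seen. Alternatives were DESeq2 1.42.0, its size factors, library totals, no count filter, adjusted p alone, all 18 libraries in 1 model, a replicate block and leaving out each library.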

Additional observations from a re-analysis of the deposited data

Results flagged for a closer look

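The change after OVA NPs against PBS differed between the tissues, by the interaction term in edgeR's quasi-likelihood test with Benjamini-Hochberg adjustment over all genes, in 5 members. The difference in log2 fold change (Peyer's patch minus spleen) was -0.49 for Ndufa4, -0.38 for Atp5b, -0.38 for Cox6a1, -0.37 for Atp5a1 and -0.32 for Cox7a2l. These are 5 of 80 members tested, against 3.54% of 16619 genes called lower, and the count was 0 when any 1 of 6 of the 12 libraries was left out. All 5 had a positive log2 fold change in the spleen and a negative one in the Peyer's patches, where none passed the test. Groups of 3 libraries are too small for a test of single outlying libraries, so none was made.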

How the results depend on the processing

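The called members were all higher in both spleen comparisons with PBS and in the Peyer's patches after soluble OVA, and all lower for OVA NPs against soluble OVA in the Peyer's patches, under every alternative run. With each library left out in turn, the number of members called ran from 25 to 48 for OVA NPs against PBS in the spleen, 25 to 55 for soluble OVA, 33 to 57 for soluble OVA in the Peyer's patches, 41 to 60 for OVA NPs against soluble OVA, 22 to 48 between the tissues after PBS, 36 to 54 after soluble OVA and 2 to 6 after OVA NPs, 0 to 15 for the difference between tissues in the OVA NP effect and 0 to 1 for that in the soluble OVA effect. With all 18 libraries in 1 model the spleen count for OVA NPs was 25. With library totals 23 members were called between the tissues after PBS, and with adjusted p alone 8 after OVA NPs. The difference between tissues in the OVA NP effect gave 10 calls in DESeq2, 2 without a count filter and 3 with the replicate block. A check of likeness between libraries of equal replicate number found no pairing, but with 3 libraries per group it cannot show whether mice were shared. The replicate block gave 37 and 44 members in the spleen comparisons with PBS, 33 and 40 in the Peyer's patch comparisons with soluble OVA. Of 1494 values recomputed for named members, 1298 kept direction and call, 188 lost the call, 7 gained one and 1 changed sign. That value was the one for Sdha, spleen OVA NP vs PBS, where the log2 fold change ran from -0.004414 (without OVA NP replicate 1) to 0.04835 over the leave-one-out fits. The cause of these changes was not tested, beyond the smaller number of samples in the leave-one-out fits.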

Other observations

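The median member deviated from the other replicates of its group by 0.22 on the log2 scale in soluble OVA spleen replicate 1, by -0.15 in PBS Peyer's patch replicate 2 and by 0.16 in PBS Peyer's patch replicate 3.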
